A study of Homo sapiens with 8 samples.

Results

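A set of 82 genes was found that were expressed in Raji cells kept in the DMSO vehicle and close to absent from Raji-4RH cells kept in the same vehicle. A gene was a member when it reached at least 2 FPKM in both Raji DMSO libraries and stayed under 0.1 FPKM in both Raji-4RH DMSO libraries, where FPKM is the number of fragments scaled by gene length and by the total of counted reads. The rule was met by 82 of the 18143 genes that could be placed in the deposited table, and by 82 of the 7980 genes that reached 2 FPKM in both Raji DMSO libraries. Of the members, 81 were protein-coding and 1, LINC00029, was a long intergenic RNA. With the lines exchanged, the same limits were met by 167 genes. The members were thus selected on their FPKM in the 4 DMSO libraries, so these levels are given as a description and not tested.

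Raji is an Epstein-Barr virus-positive Burkitt's lymphoma line, labelled as rituximab sensitive, and Raji-4RH is the line derived from it by repeated exposure to rituximab, a CD20 antibody, labelled as rituximab resistant. Both lines carried 2 to 3 passages on their labels and were given 3 μM chidamide, an oral inhibitor of histone deacetylases (HDACs), or DMSO for 24 h, then collected by flow sorting. Each of the 4 groups (Raji DMSO, Raji chidamide, Raji-4RH DMSO, Raji-4RH chidamide) holds 2 RNA-seq libraries. With 1 resistant line, its rituximab history cannot be told apart from any other difference between the lines.

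Genes of 1 cell type can differ between related lines through deletion, loss of a driving transcription factor, or silencing in chromatin. DNA methylation of a CpG-rich promoter is a form of repression. Histone deacetylation is a second layer of repression that HDAC inhibitors relieve at some genes and not at others. These data measured RNA only, so neither the gene copies nor the chromatin of the members was measured.

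The libraries held 13991697 to 21193441 counted reads, the lowest being a Raji-4RH chidamide library, and the 10 highest rows took 4.887% to 6.504% of the reads. Every library was closest to its own replicate. The replicates of Raji-4RH chidamide differed most, with a chi-square per degree of freedom of 13.5 against 1.77 to 5.25 in the other groups. The B cell markers CD22, CD79A, CD79B, MS4A1, PAX5, EBF1 and POU2AF1 were above 5 FPKM in every library, and the only placed erythroid marker and both epithelial markers stayed under 0.2 FPKM. The 5 T cell markers summed to 0.0891 to 1.27 FPKM in Raji and 4.75 to 13.5 FPKM in Raji-4RH, mostly CD4, with CD8A under 0.1 FPKM throughout. CD3E was at 0.619 and 0.830 FPKM in Raji-4RH DMSO and 2.94 and 4.10 FPKM in Raji-4RH chidamide. The 3 NK cell markers summed to 1.30 to 6.09 FPKM, mostly NKG7. The 5 myeloid markers summed to 1.09 to 1.21 FPKM in the DMSO libraries of both lines and 10.9 to 11.9 FPKM in the chidamide libraries of both lines. The 2 plasma cell markers stayed at 0.145 to 1.46 FPKM in sum, and the 2 placed stromal markers at 0.0409 to 2.31 FPKM. The part of any other cell in the members' values was not tested. In such bulk libraries, fewer cells that carry a transcript and less transcript per cell cannot be told apart.

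The promoters of 6 members are shown as examples of members at lower and at higher levels in Raji-4RH with chidamide. PRKCB, A4GALT and SLFN11 were among the members with the highest level in Raji and stayed under 0.2 FPKM in Raji-4RH with chidamide, while SYT11, FCER2 and EBI3 were among the 5 that reached the highest level in Raji-4RH with chidamide. Each sequence is the RefSeq window from 250 bases before to 50 bases after the annotated start, on GRCh38.p14, read 5′ to 3′ along the gene's own strand, with every CpG (the letters CG) in capitals.
PRKCB, chr16:23835733-23836032, strand +: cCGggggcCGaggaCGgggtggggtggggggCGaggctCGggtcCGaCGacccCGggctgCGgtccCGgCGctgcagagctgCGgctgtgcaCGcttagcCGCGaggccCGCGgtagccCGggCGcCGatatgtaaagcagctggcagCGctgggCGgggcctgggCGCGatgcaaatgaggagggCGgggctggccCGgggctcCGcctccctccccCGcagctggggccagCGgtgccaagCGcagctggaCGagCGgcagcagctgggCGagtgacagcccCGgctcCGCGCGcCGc
A4GALT, chr22:42720821-42721120, strand minus: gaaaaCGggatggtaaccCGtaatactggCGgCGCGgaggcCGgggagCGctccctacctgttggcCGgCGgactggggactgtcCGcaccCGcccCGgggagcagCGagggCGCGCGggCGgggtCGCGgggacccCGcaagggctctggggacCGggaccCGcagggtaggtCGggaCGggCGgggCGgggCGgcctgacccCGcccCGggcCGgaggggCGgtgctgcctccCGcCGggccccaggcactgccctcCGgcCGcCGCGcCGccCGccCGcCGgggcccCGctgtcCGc
SLFN11, chr17:35373572-35373871, strand minus: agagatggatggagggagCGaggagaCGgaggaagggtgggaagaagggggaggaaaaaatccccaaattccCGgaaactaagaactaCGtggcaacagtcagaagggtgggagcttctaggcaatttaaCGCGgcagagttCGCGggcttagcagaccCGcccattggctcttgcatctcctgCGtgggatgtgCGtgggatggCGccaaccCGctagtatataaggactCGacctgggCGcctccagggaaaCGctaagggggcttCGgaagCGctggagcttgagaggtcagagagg
SYT11, chr1:155859317-155859616, strand +: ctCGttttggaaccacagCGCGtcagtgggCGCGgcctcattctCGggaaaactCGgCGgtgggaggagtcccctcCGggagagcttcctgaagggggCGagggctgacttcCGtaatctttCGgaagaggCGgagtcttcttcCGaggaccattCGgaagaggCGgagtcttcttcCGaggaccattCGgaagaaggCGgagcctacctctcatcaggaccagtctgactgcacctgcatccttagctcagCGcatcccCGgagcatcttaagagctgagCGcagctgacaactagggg
FCER2, chr19:7702082-7702381, strand minus: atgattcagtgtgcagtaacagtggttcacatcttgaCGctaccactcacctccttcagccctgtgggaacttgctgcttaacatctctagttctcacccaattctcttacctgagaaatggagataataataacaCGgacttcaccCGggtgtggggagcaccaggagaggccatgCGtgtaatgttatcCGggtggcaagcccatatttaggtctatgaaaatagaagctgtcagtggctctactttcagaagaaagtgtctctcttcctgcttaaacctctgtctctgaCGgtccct
EBI3, chr19:4229273-4229572, strand +: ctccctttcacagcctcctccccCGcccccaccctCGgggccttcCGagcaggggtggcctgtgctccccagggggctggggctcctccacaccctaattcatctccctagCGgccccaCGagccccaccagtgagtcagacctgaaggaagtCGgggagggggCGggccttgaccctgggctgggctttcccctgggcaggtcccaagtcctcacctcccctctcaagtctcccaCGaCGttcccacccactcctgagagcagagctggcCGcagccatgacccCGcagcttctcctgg

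These windows held 38 CpGs for PRKCB, 43 for A4GALT, 18 for SLFN11, 22 for SYT11, 6 for FCER2 and 11 for EBI3. The 6 do not stand for the members as a whole. The window of NMU, which had 0 reads in both Raji-4RH chidamide libraries, held 5 CpGs. That of FSD1, with a mean of 3.93 FPKM in Raji-4RH chidamide, held 25. A RefSeq promoter was given for 70 of the 82 members. Among them the ratio of observed to expected CpG, a measure of CpG content corrected for base composition, had a median of 0.78, beside 0.87 over the 6649 genes at 2 FPKM in Raji DMSO that had a promoter. A ratio of 0.6 or more was found in 54 of the 70 members (77.1%) and in 5886 of those 6649 genes (88.5%). The lowest ratios were those of the windows given for KCNA3 (0.13), GPAT2 (0.16) and MAT1A (0.17). Each window rests on a single RefSeq start, which for some members lies away from the gene's start in GENCODE 29. The KCNA3 window lies beyond the downstream end of the gene's GENCODE coordinates. Those of GPAT2, SYNJ2, CDC42EP3, PLAC8, PRKCZ, ZNF43 and ALB lie inside the gene. Those of A4GALT, printed above, and of COBLL1, TDRKH, GLUL, ATL3 and FAM213A also lie wholly inside the gene, nearer to its start. Such windows may not hold the promoter in use, and they enter the median and the share above. The CpG counts of the members ran from 1 to 55 with a median of 22, against a median of 27 over the genes at 2 FPKM. The methylation of these CpGs was not measured.

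**Figure D1:**
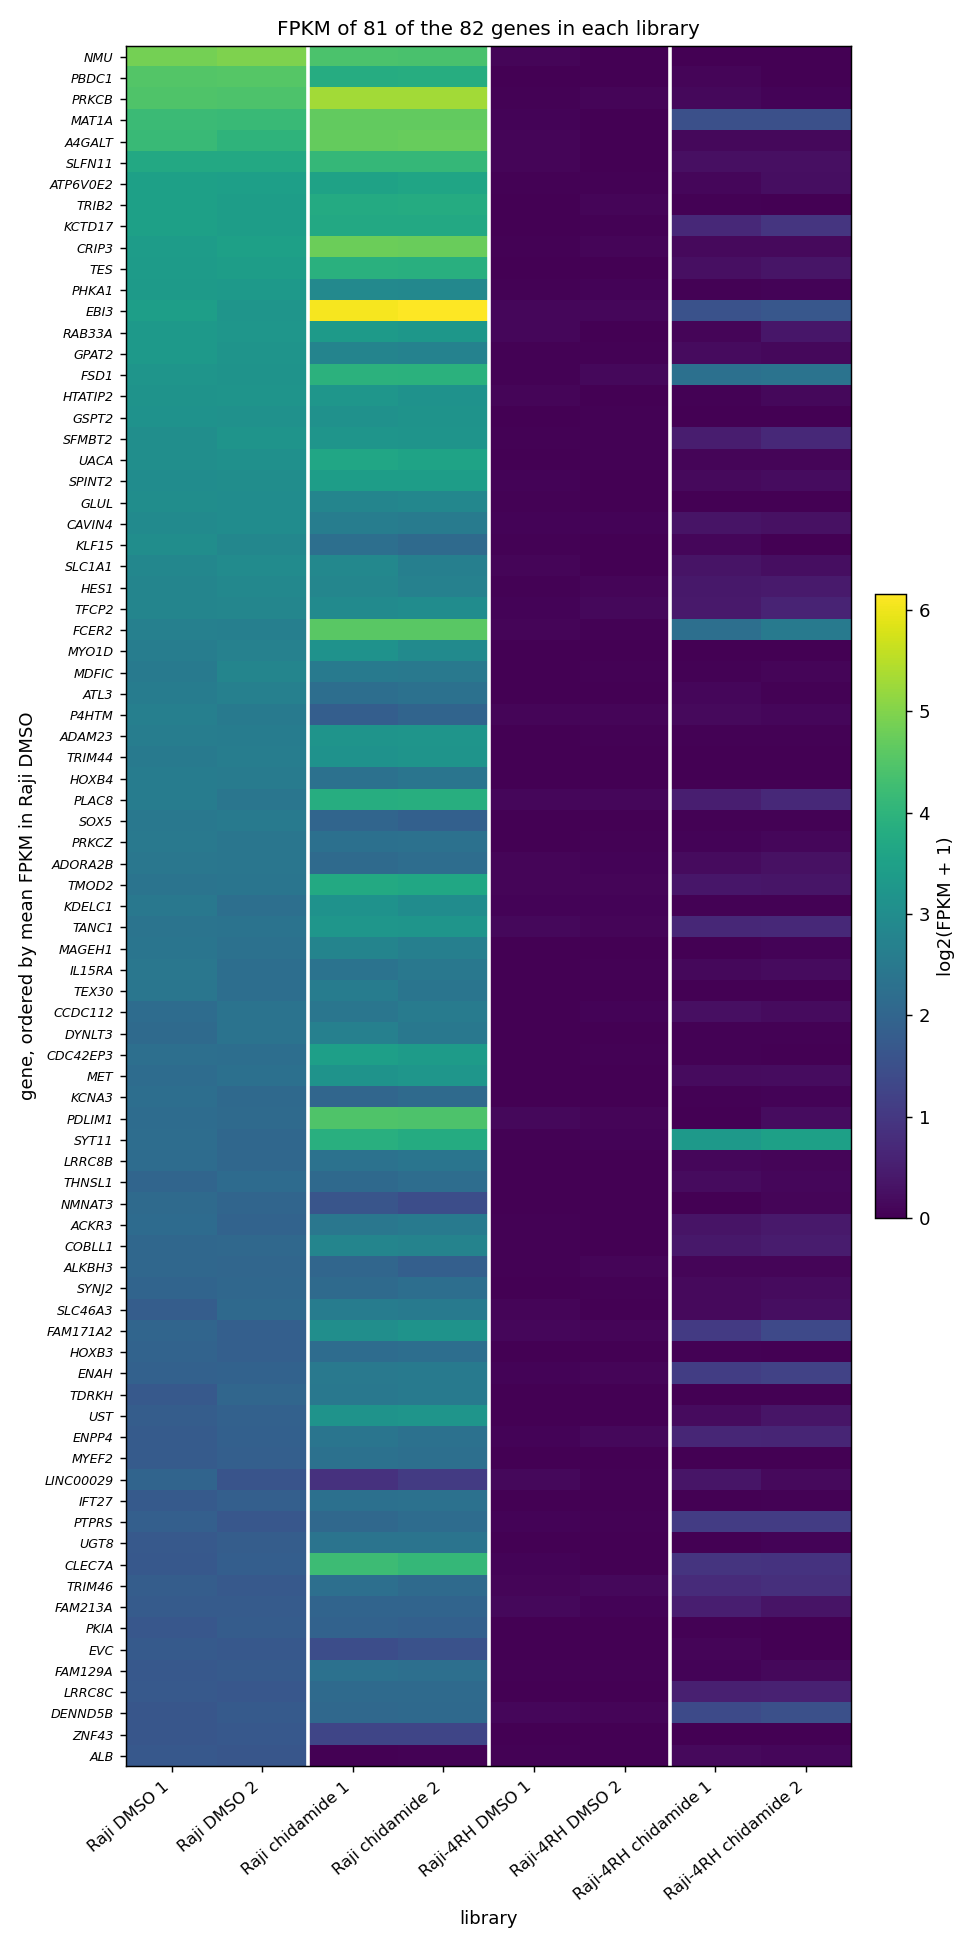
Heat map of log2(FPKM + 1) for 81 of the 82 members (rows, ordered by their mean in Raji DMSO) in the 8 libraries (columns, separated by group). The Raji columns are filled from top to bottom, the Raji-4RH DMSO columns lie near 0 by the rule, and a few rows such as SYT11, FCER2, FSD1 and EBI3 stand above 0 in the Raji-4RH chidamide columns.

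In Raji DMSO the members were genes of low to moderate level. Their mean ran from 2.03 FPKM to 29.1 FPKM (NMU) with a median of 4.14 FPKM, beside 10.5 FPKM over all genes at 2 FPKM. In single Raji DMSO libraries they were backed by 73 to 4177 reads. In single Raji-4RH DMSO libraries they had 0 to 25 reads, and 11 members had no read in either of these libraries. Over all members the reads summed to 46734 and 47858 in the Raji DMSO libraries and to 229 and 246 in the Raji-4RH DMSO libraries. A count of 0 allows up to 3 reads per library, and such limits cover counting error only.

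The limits of the rule cut through a continuous range. Just inside the lower limit lay LINC00029, with 2.97 and 2.02 FPKM in Raji DMSO. Just outside it lay MPP2, with 2.30 and 1.98 FPKM, and KLF3, with 1.99 and 2.02 FPKM. At the upper limit, PDLIM1 (0.0953 and 0.0632 FPKM in Raji-4RH DMSO) and TFCP2 (0.0418 and 0.0986 FPKM) were inside, and CDK18 (0.101 and 0.0345 FPKM) and DGAT2 (0.0809 and 0.101 FPKM) were outside.

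The chidamide libraries took no part in the choice, and asked whether the members also differed between the lines in cells given the drug. They did for all but 1 member. With chidamide, 81 of 82 members were lower in Raji-4RH than in Raji (limma on log2(FPKM + 1), Benjamini-Hochberg adjusted p under the threshold of 0.05), none was higher, and ALB did not pass. Of all 9755 genes tested, 34.5% were lower and 39.7% were higher in that comparison. The members passed the filter for testing through their Raji DMSO libraries alone, and the lines compared are those that the rule compared. The count therefore shows that the baseline difference was still seen with chidamide, and is not independent evidence for it. The median log2 difference of the members was -2.36, with a range of -5.20 to 0.11, beside a median of 0.052 over all genes tested. Taking the 5 members with no read in either Raji-4RH chidamide library at 3 reads per library left the median at -2.36. In 81 members both Raji-4RH chidamide libraries lay below both Raji chidamide libraries, which 40.9% of all tested genes did as well. These differences are on the log2(FPKM + 1) scale, which understates the change of genes at low levels. The labels do not say whether replicates were separate cultures, so the p-values measure the spread between these libraries, which may be technical.

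On the linear scale, the level in Raji-4RH chidamide was a median of 1.71% of that in Raji chidamide, or 1.80% with the 5 members at 0 reads taken at their limit, and it was under 5% for 59 members. The 5 were NMU, GSPT2, HOXB4, TEX30 and ZNF43. Against that limit, with chidamide NMU was at least 104-fold lower, GSPT2 at least 116-fold, HOXB4 at least 81.0-fold, TEX30 at least 53.1-fold and ZNF43 at least 66.7-fold lower in Raji-4RH than in Raji. TEX30 and ZNF43 had no read in any of the 4 Raji-4RH libraries.

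**Figure D2:**
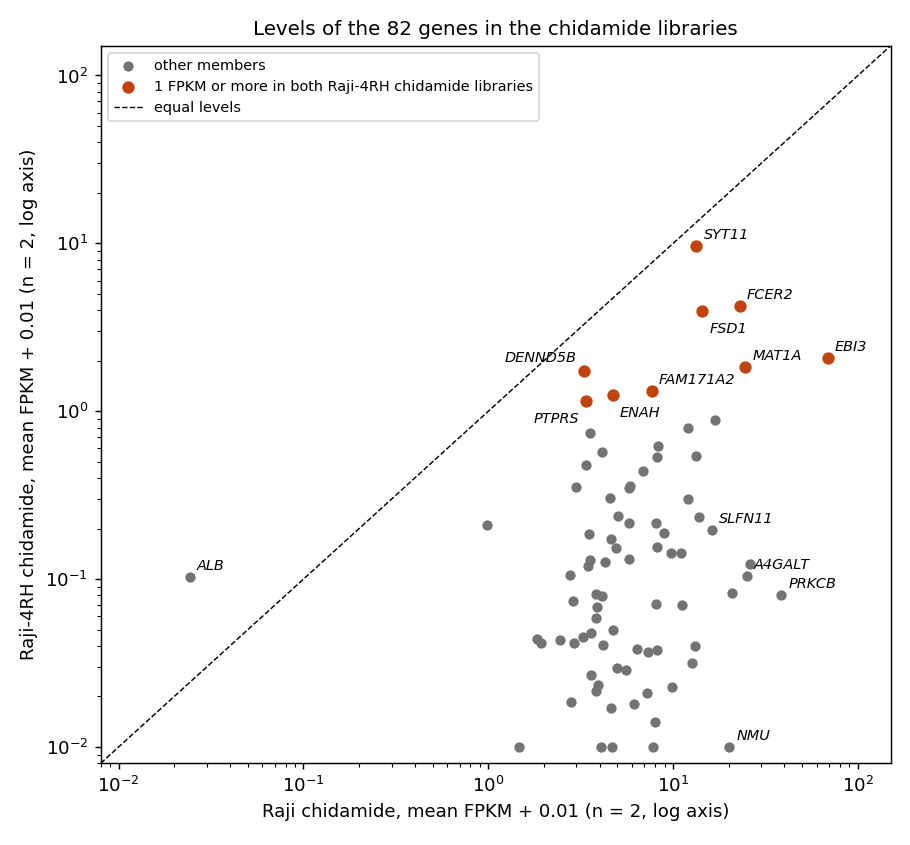
Mean FPKM of each of the 82 members in Raji chidamide (x) and Raji-4RH chidamide (y), each the mean of 2 libraries with 0.01 added, on log axes, with a dashed line of equal levels. All members but ALB lie below the line, SYT11 lies nearest to it at 72.3% of the Raji level, and the 9 orange points are the members at 1 FPKM or more in both Raji-4RH chidamide libraries.

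Members are described below in groups by what their products do. The grouping was made after the values were seen, carries no test, and places each member once.

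The 10 members that act in immune reception and lymphocyte signalling were all lower in Raji-4RH with chidamide. PRKCB, protein kinase C beta, relays B cell receptor signals towards NF-κB. It stood at 20.9 and 20.7 FPKM in Raji DMSO, 38.6 and 38.3 in Raji chidamide, 0.0212 and 0.0517 in Raji-4RH DMSO, and 0.0926 and 0.0487 in Raji-4RH chidamide. Its log2 difference between the lines with chidamide, -5.20 (SE 0.060, adjusted p = 1.41e-06), was the largest of the members. EBI3, the subunit shared by interleukin-27 and interleukin-35, was at 9.94 and 8.31 FPKM in Raji DMSO, against 66.7 and 70.2 with chidamide. In Raji-4RH it was at 0.0831 and 0.0735 FPKM in DMSO and 1.95 and 2.20 with chidamide, so that it was higher with chidamide in both lines and in Raji-4RH was at 3.03% of the Raji level. FCER2, the low-affinity IgE receptor CD23, showed the same order of groups, with 5.39 and 5.33 FPKM in Raji DMSO, 22.8 and 22.9 in Raji chidamide, 0.0653 and 0.0193 in Raji-4RH DMSO, and 3.76 and 4.70 in Raji-4RH chidamide. TRIB2, a pseudokinase, was at 10.3 and 9.79 FPKM in Raji DMSO and under 0.06 FPKM in all 4 Raji-4RH libraries.

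CLEC7A, the beta-glucan receptor dectin-1, and PLAC8 were low in Raji DMSO and higher in Raji chidamide. CLEC7A was at 2.24 and 2.58 FPKM in Raji DMSO, 17.5 and 16.1 in Raji chidamide, 0.0382 and 0 in Raji-4RH DMSO, and 0.904 and 0.855 in Raji-4RH chidamide. PLAC8 was at 4.99 and 4.35 FPKM, 13.3 and 13.4, 0.0830 and 0.0857, and 0.427 and 0.634 FPKM in the same order of groups. The other members of the group, IL15RA (the interleukin-15 receptor alpha chain), ACKR3 (an atypical chemokine receptor), ADORA2B (an adenosine receptor) and KCNA3 (a voltage-gated potassium channel of lymphocytes), were at 2.90 to 4.42 FPKM in single Raji DMSO libraries and under 0.34 FPKM in every Raji-4RH library.

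Among 14 metabolic, glycan and lipid enzymes, all were lower in Raji-4RH with chidamide. A4GALT makes the glycolipid Gb3, known as CD77, the Burkitt's lymphoma antigen and receptor of Shiga toxin. It stood at 17.1 and 15.1 FPKM in Raji DMSO, 24.9 and 25.3 in Raji chidamide, 0.0544 and 0 in Raji-4RH DMSO, and 0.0971 and 0.0922 in Raji-4RH chidamide, a log2 difference with chidamide of -4.57 (SE 0.058, adjusted p = 1.41e-06). MAT1A, which makes the methyl donor S-adenosylmethionine chiefly in liver, was at 17.4 and 16.9 FPKM in Raji DMSO, 24.7 and 24.4 in Raji chidamide, 0.0433 and 0 in Raji-4RH DMSO, and 1.82 and 1.82 in Raji-4RH chidamide. GLUL, glutamine synthetase, was at 7.09 and 6.93 FPKM in Raji DMSO and under 0.02 FPKM in every Raji-4RH library. PHKA1, a regulatory subunit of phosphorylase kinase, was at 9.29 and 9.08 FPKM in Raji DMSO and under 0.04 FPKM in every Raji-4RH library. GPAT2, an enzyme of glycerolipid synthesis, was at 8.81 and 8.13 FPKM in Raji DMSO and at most 0.138 FPKM in Raji-4RH, but its label lies within 10 rows of a change in the row offset of the table and its identity is uncertain. The others (FAM213A, ENPP4, P4HTM, THNSL1, KDELC1, HTATIP2, NMNAT3, UGT8 and UST) were at 2.27 to 8.16 FPKM in single Raji DMSO libraries.

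SLFN11 and ALKBH3 act in the response to DNA damage. SLFN11 blocks stressed replication forks and is known as a determinant of sensitivity to DNA-damaging drugs. It was at 12.2 and 12.2 FPKM in Raji DMSO, 16.2 and 16.0 in Raji chidamide, 0.0535 and 0.0158 in Raji-4RH DMSO, and 0.191 and 0.182 in Raji-4RH chidamide, a log2 difference with chidamide of -3.85 (SE 0.059, adjusted p = 1.76e-06). ALKBH3, which repairs alkylated bases, was at 3.14 and 3.08 FPKM in Raji DMSO, 3.07 and 2.63 in Raji chidamide, and under 0.07 FPKM in every Raji-4RH library.

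In the 11 members that act in transcription and chromatin, all were lower in Raji-4RH with chidamide and none reached 1 FPKM there. HES1, a repressor downstream of Notch, was at 5.92 and 6.36 FPKM in Raji DMSO, 6.07 and 5.52 in Raji chidamide, 0.0259 and 0.0686 in Raji-4RH DMSO, and 0.312 and 0.369 in Raji-4RH chidamide. KLF15, a zinc-finger factor, was at 7.09 and 6.21 FPKM in Raji DMSO, 3.75 and 3.39 in Raji chidamide, and at most 0.0753 FPKM in Raji-4RH. SFMBT2, a Polycomb group protein, was at 7.24 and 8.03 FPKM in Raji DMSO and 0.416 and 0.627 in Raji-4RH chidamide, and TFCP2 was at 5.91 and 6.12 FPKM and 0.336 and 0.525 FPKM in the same groups. MDFIC, an inhibitor of myogenic and other transcription factors, was at 4.73 and 5.92 FPKM in Raji DMSO and at most 0.0517 FPKM in Raji-4RH. The homeobox genes HOXB3 (2.91 and 2.66 FPKM in Raji DMSO) and HOXB4 (4.99 and 4.88 FPKM) were both members, and only 3 HOX genes reached 2 FPKM in Raji DMSO at all. By contrast, 1 of 168 genes with a ZNF symbol at that level was a member, ZNF43.

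The 16 growth factor receptor, adhesion and cytoskeletal members were all lower in Raji-4RH with chidamide. In Raji itself 15 of them had both chidamide libraries above both DMSO libraries. So did 53 of all 82 members and 36.0% of the 7980 genes at 2 FPKM. CRIP3, a LIM domain protein, was at 9.56 and 10.3 FPKM in Raji DMSO, 26.4 and 26.0 in Raji chidamide, 0.0217 and 0.0577 in Raji-4RH DMSO, and 0.117 and 0.111 in Raji-4RH chidamide, a log2 difference with chidamide of -4.61 (SE 0.058, adjusted p = 1.41e-06). PDLIM1, a LIM protein of actin fibres, was at 3.48 and 3.35 FPKM in Raji DMSO, 21.1 and 20.6 in Raji chidamide, 0.0953 and 0.0632 in Raji-4RH DMSO, and 0 and 0.145 in Raji-4RH chidamide. TES, testin of focal adhesions, was at 9.35 and 9.71 FPKM in Raji DMSO and 0.184 and 0.266 in Raji-4RH chidamide. MET, the receptor of hepatocyte growth factor, was at 3.54 and 3.81 FPKM in Raji DMSO, 7.95 and 8.44 in Raji chidamide, and 0.142 and 0.147 in Raji-4RH chidamide. SPINT2, an inhibitor of the proteases that activate hepatocyte growth factor, was at 7.003 and 7.037 FPKM in Raji DMSO and 0.110 and 0.157 in Raji-4RH chidamide. UACA was at 7.20 and 7.51 FPKM and MYO1D, a motor protein, at 5.10 and 5.55 FPKM in Raji DMSO, and neither passed 0.07 FPKM in Raji-4RH. CAVIN4, a caveolar coat protein of muscle, was at 6.68 and 6.99 FPKM in Raji DMSO, 5.10 and 4.92 in Raji chidamide, and 0.246 and 0.208 in Raji-4RH chidamide.

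The 11 members of membrane traffic, channels and transport were lower in Raji-4RH with chidamide as well. They include ATP6V0E2, a subunit of the vacuolar proton pump, at 10.2 and 10.0 FPKM in Raji DMSO and 0.0857 and 0.179 in Raji-4RH chidamide. RAB33A, a small GTPase, was at 8.94 and 8.41 FPKM in Raji DMSO and 0.0568 and 0.302 in Raji-4RH chidamide, and SLC1A1, a glutamate transporter, at 6.22 and 6.79 and at 0.250 and 0.163 FPKM. LRRC8B and LRRC8C, subunits of the volume-regulated anion channel, were at 2.18 to 3.51 FPKM in single Raji DMSO libraries. LRRC8C stood at 0.457 and 0.482 FPKM in Raji-4RH chidamide and LRRC8B at 0.0783 and 0.0595 FPKM.

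Other members with high levels in Raji were NMU, PBDC1, KCTD17 and GSPT2. NMU, the secreted neuropeptide neuromedin U, was the highest member, at 28.20 and 30.04 FPKM in Raji DMSO against 20.2 and 19.9 with chidamide, with 1 read in all 4 Raji-4RH libraries together. PBDC1 was at 21.9 and 22.2 FPKM in Raji DMSO, 12.97 and 13.27 in Raji chidamide, and at most 0.0595 FPKM in Raji-4RH. KCTD17, an adaptor of a ubiquitin ligase, was at 10.3 and 9.66 FPKM in Raji DMSO and 0.641 and 0.935 in Raji-4RH chidamide. GSPT2, a translation termination factor encoded by a retrocopy of GSPT1, was at 7.73 and 7.58 FPKM in Raji DMSO, and how reads shared with such copies were counted is not given in the sources used here. The ciliary members IFT27, EVC and CCDC112 were at 2.22 to 4.08 FPKM in single Raji DMSO libraries.

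ALB and LINC00029 differed from the rest in Raji itself. ALB, serum albumin, was at 2.25 and 2.12 FPKM in Raji DMSO, from 150 and 144 reads, and at 0 and 0.0284 FPKM in Raji chidamide, from 0 and 2 reads. With chidamide it was therefore near 0 in both lines, with 5 and 5 reads in Raji-4RH, and it did not pass (log2 difference 0.11, SE 0.073, adjusted p = 0.226). LINC00029 was at 2.97 and 2.02 FPKM in Raji DMSO against 0.840 and 1.10 with chidamide, against 0.279 and 0.121 in Raji-4RH chidamide (log2 difference -0.71, SE 0.11, adjusted p = 0.0018).

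In Raji-4RH, 9 of the 82 members stood at 1 FPKM or more in both chidamide libraries. Of all 6287 genes under 0.1 FPKM in both Raji-4RH DMSO libraries, 1.78% did so, and of the 5711 genes under 0.1 FPKM in the DMSO libraries of both lines, 1.26%. Of the 167 genes found with the lines exchanged, 1 reached that level in Raji chidamide (0.599%). Since the Raji-4RH DMSO libraries chose the members, these shares are a description without a test. At 0.5 FPKM the count was 14 and at 2 FPKM it was 3, while 38 members stayed under 0.1 FPKM in both libraries. In 59 members both Raji-4RH chidamide libraries lay above both DMSO libraries, against 48.7% of the 6287 genes, and in 1, KDELC1, both lay below, against 0.573%. KDELC1 had only 2 reads in each Raji-4RH DMSO library and 1 in each Raji-4RH chidamide library.

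SYT11, a synaptotagmin that regulates vesicle traffic, came closest to the Raji level. It was at 3.59 and 3.16 FPKM in Raji DMSO, 13.9 and 12.9 in Raji chidamide, 0.0305 and 0.0450 in Raji-4RH DMSO, and 9.03 and 10.3 in Raji-4RH chidamide, from 3 and 5 reads in DMSO to 662 and 993 reads. Its level in Raji-4RH chidamide was 286% of that in Raji DMSO and 72.3% of that in Raji chidamide, and the remaining difference between the lines passed the test (log2 difference -0.43, SE 0.082, adjusted p = 0.0049). Without the first Raji chidamide library it did not pass (log2 difference -0.38, adjusted p = 0.0581).

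FSD1, a microtubule-associated protein, was at 8.25 and 7.95 FPKM in Raji DMSO, 14.5 and 14.3 in Raji chidamide, 0.0171 and 0.0910 in Raji-4RH DMSO, and 3.81 and 4.05 in Raji-4RH chidamide. DENND5B, an exchange factor of Rab proteins, was at 2.14 and 2.33 FPKM in Raji DMSO, 3.26 and 3.29 in Raji chidamide, 0.0801 and 0.0668 in Raji-4RH DMSO, and 1.62 and 1.82 in Raji-4RH chidamide. Its level in Raji-4RH chidamide was 52.5% of that in Raji chidamide. The group was completed by PTPRS, a receptor tyrosine phosphatase (1.13 and 1.15 FPKM in Raji-4RH chidamide), ENAH, an actin regulator (1.17 and 1.31 FPKM), FAM171A2 (1.05 and 1.56 FPKM) and the enzyme MAT1A described above. Against Raji DMSO, FCER2 stood at 78.9%, DENND5B at 77.1%, FSD1 at 48.5%, PTPRS at 47.2%, FAM171A2 at 46.2%, ENAH at 44.6%, EBI3 at 22.7% and MAT1A at 10.6% with chidamide in Raji-4RH. Of the 9, SYT11 alone had a mean above its Raji DMSO level.

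**Figure D3:**
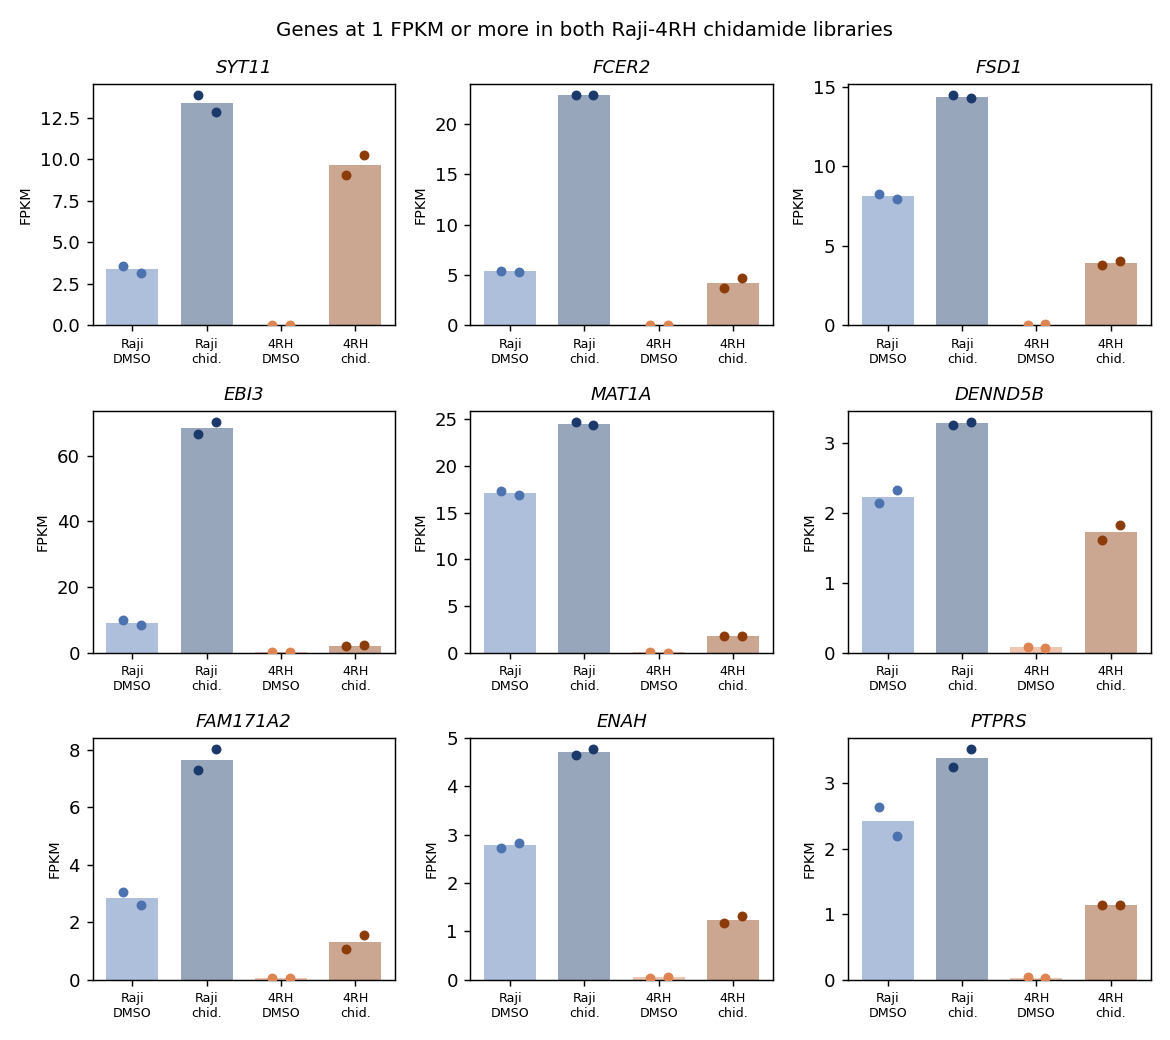
FPKM of the 9 members at 1 FPKM or more in both Raji-4RH chidamide libraries, in the 4 groups; bars are means of 2 libraries, points are the libraries, and each panel has its own axis from 0. In every panel the Raji-4RH DMSO bar is near 0 and the Raji chidamide bar is the highest.

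The promoters of these 9 members did not share 1 kind of CpG content. Of the 8 with a RefSeq promoter, FCER2, EBI3 and MAT1A had ratios of observed to expected CpG of 0.35, 0.33 and 0.17, and SYT11, FSD1, ENAH, DENND5B and PTPRS had ratios of 0.82, 0.82, 0.95, 1.04 and 1.11. A ratio of 0.6 or more was found in 62.5% of these 8 and in 81.2% of the 32 members with a promoter that stayed under 0.1 FPKM. With so few promoters, and with some windows of the 32 away from the gene's start in GENCODE 29, the shares are a description only.

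In Raji, 53 members had both chidamide libraries above both DMSO libraries, beside 36.0% of the 7980 genes at 2 FPKM, and 19 had both below, beside 48.9% of those genes. The remaining 10 overlapped. The ratio of the mean with chidamide to the mean in DMSO had a median of 1.31 over the members and 0.952 over the 7980 genes, and the Raji DMSO libraries used by the rule are on 1 side of it, so it is not tested. A ratio of 2 or more was seen in 13 members. The share of the 7980 genes that reached it is not given here, so the count is not read as particular to the members. The highest were EBI3 (7.5), CLEC7A (6.98), PDLIM1 (6.11), FCER2 (4.27), SYT11 (3.96), UST (3.08), PLAC8 (2.86) and TMOD2 (2.84). UST is a sulfotransferase of glycosaminoglycans, and TMOD2 caps actin filaments. At the other end were ALB (0.0065), LINC00029 (0.388), KLF15 (0.537) and P4HTM (0.547).

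A total of 77 members still reached 2 FPKM in both Raji chidamide libraries. All 9 members at 1 FPKM or more in Raji-4RH chidamide were among those higher in Raji chidamide, with ratios of 1.4 to 7.5 and a median of 1.77. Of the 38 members that stayed under 0.1 FPKM in Raji-4RH, 20 were higher and 13 lower in Raji chidamide, with ratios of 0.537 to 2.64 and a median of 1.19. Among the members that were higher in Raji and stayed low in Raji-4RH were PRKCB, with a ratio of 1.85 in Raji, and CDC42EP3, an effector of the GTPase CDC42, with a ratio of 2.64.

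**Figure D4:**
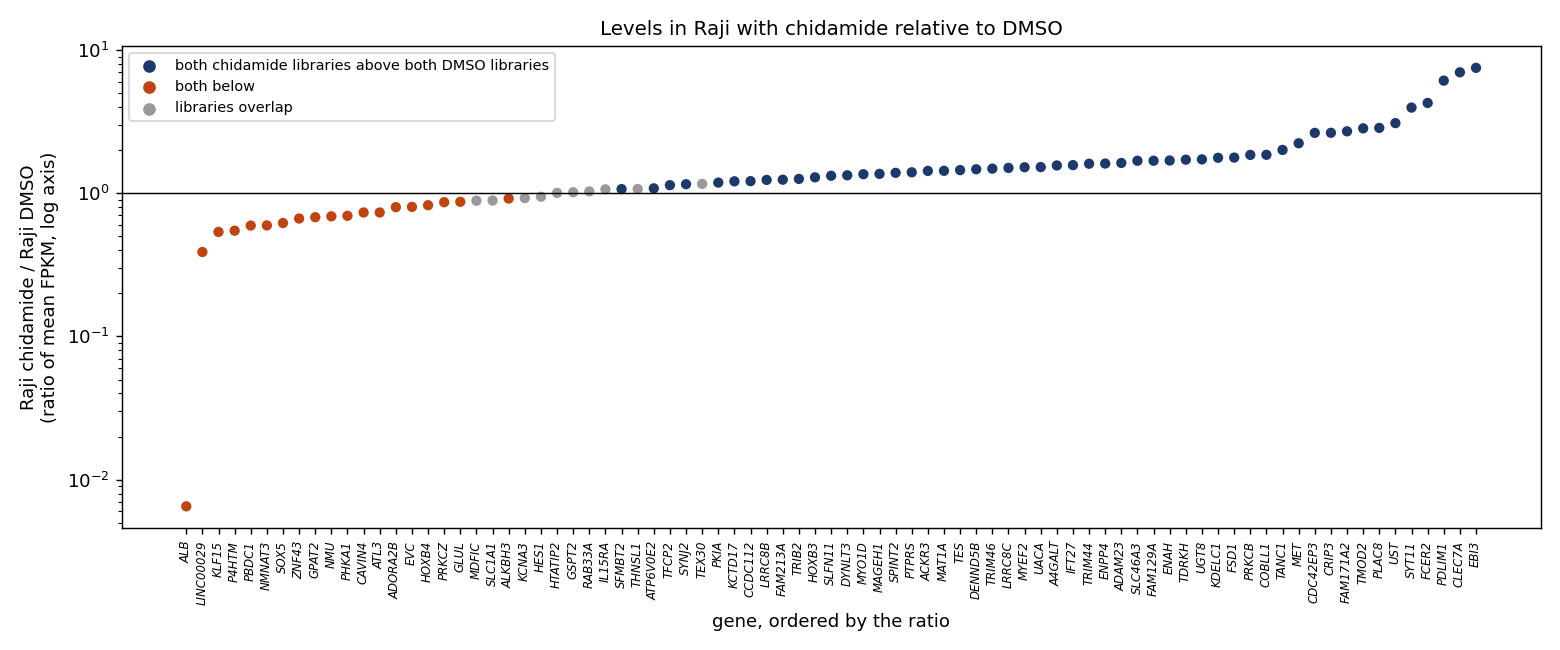
Ratio of mean FPKM in Raji chidamide to mean FPKM in Raji DMSO (log axis) for 81 of the 82 members in order of the ratio; blue marks members whose 2 chidamide libraries both lie above the 2 DMSO libraries (52), orange those with both below (19), grey the 10 that overlap. EBI3 has the highest ratio (7.5) and ALB the lowest (0.0065).

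The members were spread over the genome (coordinates from GENCODE 29, GRCh38). They lay on every autosome but 18 and 21, with 10 on chromosome 1 and 7 on chromosome 2. On the X chromosome lay 6 (7.32% of the members, beside 3.21% of the genes at 2 FPKM in Raji DMSO), namely PBDC1, PHKA1, RAB33A, GSPT2, MAGEH1 and DYNLT3. PRKCB lies at chr16:23835946-24220611, A4GALT at chr22:42692112-42721298, SLFN11 at chr17:35350305-35373701, SYT11 at chr1:155859509-155885199, FCER2 at chr19:7688758-7702146 and EBI3 at chr19:4229498-4237531.

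Some members lay close together. There were 9 pairs under 1 Mb apart, holding 17 members. HOXB3 and HOXB4 overlap on chromosome 17, and how reads in the overlap were counted is not given in the sources used here. TEX30 and KDELC1 on chromosome 13 lie 10.5 kb apart and LRRC8B and LRRC8C on chromosome 1 lie 35.2 kb apart, with no placed gene between either pair. MAT1A and FAM213A on chromosome 10 lie 118 kb apart and TES and MET on chromosome 7 lie 414 kb apart, with no gene at 2 FPKM in Raji DMSO between them. MDFIC, the next gene at that level below TES, lies 1.19 Mb from it, so that the 3 consecutive expressed genes MDFIC, TES and MET were all members, while CAPZA2, 12.7 kb beyond MET, was at 8.88 FPKM in Raji DMSO and 9.30 FPKM in Raji-4RH DMSO. EBI3 and FSD1 on chromosome 19 lie 67.1 kb apart with CCDC94 between them, which was at 28.0 FPKM in Raji DMSO and 17.3 FPKM in Raji-4RH DMSO.

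The nearest gene at 2 FPKM in Raji DMSO was taken on each side of each member. This gave 164 neighbour positions at a median distance of 166 kb, of which 12 were held by members. A gene beside 2 members, such as TES or CCDC94, was counted for each of them, so the 164 are not all distinct genes. Of the other 152, 134 (88.2%) were in Raji-4RH DMSO at 0.5 of their Raji DMSO level or more, beside 89.3% of all genes at 2 FPKM. The median ratio was 0.995, beside 0.986 over those genes. Between 0.5 and 2 times the Raji level lay 129 neighbours (84.9%, beside 84.5% of those genes), and 5 were above 2 times, up to 7.17 times. Only 3 were under 0.1 of it, PRKCZ-AS1, CYBB and CYP39A1. For 55 of the 82 members both neighbours, other members included, were at 0.5 or more. The same share over all genes is not given here, so this count has no background beside it. PRKCZ-AS1 is antisense to the member PRKCZ, and the library kit named in the labels does not mark strand, so reads from the pair cannot be told apart.

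Beyond the members, lists of related genes give the setting in the chidamide libraries. Over all 9755 genes tested there, 34.5% were lower and 39.7% higher in Raji-4RH, and no list was tested against these shares. Of 25 genes of B cell surface and signalling, 23 were placed and 20 tested. In Raji-4RH 16 of them were lower and 3 higher (BLK, CD72 and FCRL1), with a median log2 difference of -0.90, and 1 of them, FCER2, was a member. MS4A1, which encodes CD20, was at 53.8 and 58.7 FPKM in Raji DMSO, 129 and 118 in Raji chidamide, 12.5 and 12.9 in Raji-4RH DMSO, and 21.99 and 25.25 in Raji-4RH chidamide (log2 difference with chidamide -2.34, SE 0.092, adjusted p = 1.62e-05). Unlike the members it was lower in Raji-4RH without being near 0. Of the B cell markers named above, EBF1 was higher, CD79B did not pass and the others were lower, and of the germinal centre genes MME was higher and BCL6 did not pass. Of 14 genes of cell adhesion, 13 were placed and 11 tested, 5 lower and 5 higher, and none was a member.

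Of 15 genes of the silencing machinery, 14 were placed and 11 tested. Of these, 5 were lower and 2 higher in Raji-4RH with chidamide, beside 34.5% and 39.7% of all genes tested, and none was a member. DNMT1, the maintenance DNA methyltransferase, was at 115 and 109 FPKM in Raji DMSO, 97.3 and 96.5 in Raji chidamide, 52.0 and 52.1 in Raji-4RH DMSO, and 28.1 and 32.4 in Raji-4RH chidamide (log2 difference -1.65, SE 0.085, adjusted p = 3.96e-05). HDAC1 (-0.46), HDAC2 (-0.78), EED (-0.28) and SUZ12 (-0.28) were lower on the log2 scale, and DNMT3B (0.39) and SETDB1 (0.28) were higher. DNMT3A and TET1 were too low in DMSO to be tested. DNMT3A was at 0.0674 and 0.0330 FPKM in Raji DMSO and 1.01 and 0.974 in Raji-4RH DMSO, and TET1 at 0.0109 and 0.0053 FPKM and 1.13 and 0.980 FPKM, so that for these 2 genes Raji was the line near 0. The part of any of these genes in the members' levels was not tested.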

How the data were processed

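RNA-seq of 8 libraries was used, 2 for each of Raji and Raji-4RH with DMSO or chidamide, grouped by the labels. The deposited table gives FPKM values that the authors computed per gene, and the submitters' processing notes name HISAT2 2.0.5, SAMtools 1.7, HTSeq 0.9.1 and DESeq2 1.22.2 with hg38/GRCh38, without their roles. The strand setting and the annotation are not given in the sources used here. The value rows are displaced from the label rows by up to 14 rows, so the last 662 of 63967 rows, which repeat the first 662, were dropped, and 18143 labels in 12 blocks were joined to values by fixed offsets, 11909 of them to a lower row, 52 members included. FPKM was multiplied by the length in the value row over the length in the label row. In all 11 blocks past the first, the offset used gave the highest correlation (0.392 to 0.583, next best at most 0.142) between measured levels and levels predicted from the words of the gene descriptions. Placed rows held 90.7% to 93.2% of the reads. Reads were recovered as FPKM times length times library total, and 100% of non-zero values were whole within 0.05.

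Genes at 1 FPKM or above in no fewer than 2 of the 4 DMSO libraries were tested on log2(FPKM + 1), a pseudocount of 1, with limma 3.58.1 (trend) in R 4.3.3 on the 4 chidamide libraries alone, as Raji-4RH minus Raji, two-sided, with Benjamini-Hochberg adjustment over all 9755 genes and a threshold of 0.05. The steps were tested on simulated data. Comparisons with DMSO libraries have no test, because the rule used those libraries. The genes named by rule were the 30 protein-coding members highest in Raji DMSO, up to 5 non-coding members, and the 5 highest in Raji-4RH chidamide (32 genes after overlaps); other members are named where a count or a group description turns on them, chosen after their values were seen. Members, gene lists and tests were chosen with earlier results of these data known. Sequences and starts came from RefSeq (GRCh38.p14), matched by gene ID for 70 members, and positions from GENCODE 29. Replicate numbers were not shown to pair the libraries. Alternatives tried covered the pseudocount, filters, scaling, tool, libraries, rule limits and row join. Some genes are not reported here by name, and 1 member is left out of 2 of the plots.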

Additional observations from a re-analysis of the deposited data

Results flagged for a closer look

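In 11 members the order of the libraries was opposite in the 2 lines. Both Raji chidamide libraries lay below both Raji DMSO libraries, and both Raji-4RH chidamide libraries lay above both Raji-4RH DMSO libraries. This was 13.4% of the members, beside 6.79% of the 7980 genes at 2 FPKM in Raji DMSO, and the difference between the lines was not tested. Those 7980 genes were not chosen for being near 0 in Raji-4RH DMSO, so the 2 shares are not alike. Of the 6287 genes under 0.1 FPKM in both Raji-4RH DMSO libraries, 48.7% had both chidamide libraries above. For ALKBH3 the reads in Raji-4RH were 1 and 3 in DMSO and 2 and 3 with chidamide. The levels were low, with 1 to 13 reads in single Raji-4RH chidamide libraries, and the rule had held these genes under 0.1 FPKM in Raji-4RH DMSO. Their means in Raji-4RH chidamide were 0.227 FPKM for CAVIN4, 0.2004 FPKM for LINC00029, 0.176 FPKM for ADORA2B, 0.122 FPKM for GPAT2, 0.0963 FPKM for P4HTM, 0.0931 FPKM for ALB, 0.0645 FPKM for ALKBH3, 0.0578 FPKM for PRKCZ, 0.0483 FPKM for ATL3, 0.0338 FPKM for EVC and 0.0314 FPKM for SOX5. KDELC1 had the reverse order, above in Raji and below in Raji-4RH, with a mean of 0.0266 FPKM in Raji-4RH chidamide. In Raji-4RH this rests on 2 reads in each DMSO library and 1 in each chidamide library, and it was not tested either.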

How the results depend on the processing

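The count of members lower in Raji-4RH with chidamide was 81 under a pseudocount of 0.1, without a filter, with a filter of 1 FPKM in at least 2 of all 8 libraries, after quantile normalization, with all 8 libraries in 1 fit, with limma voom on recovered reads and without trend. It was 80 to 81 when each chidamide library was left out, where the lone library of a line is assumed to vary like the other line's. It was 78 when a log2 difference of at least 1 was also asked, which left 1789 of the 7241 genes called in all. Calls over all genes were 5415 to 7873 when libraries were left out, and 9831 of 16843 without a filter. With the replicate number as a block the counts were 81 members and 7207 genes. The numbers were not shown to pair the libraries (correlation of same-numbered deviations 0.017 with chidamide and -0.18 in DMSO, 2 pairs each), and the block changed no call of a named member.

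The rule found 133 genes with a floor of 1 FPKM, 31 with 5 FPKM, 53 with a ceiling of 0.05 FPKM, 106 with 0.2 FPKM, and 85 to 89 when a DMSO library was left out. Members at the expressed level in Raji-4RH chidamide numbered 14 at 0.5 FPKM and 3 at 2 FPKM, and 9 at 1 FPKM when either library was left out. Joining labels to the values of the same row, as deposited, found 83 genes, 31 of them shared, and reversed TES (1.26), GPAT2 (0.38), GLUL (0.069), CAVIN4 (0.10), KLF15 (0.72), TFCP2 (0.20), MYO1D (0.15) and SYT11 (0.30) on the log2 scale, since those values then belong to another row. SLFN11 did not pass in that join (-0.062), and SYT11 did not pass without the first Raji chidamide library. Of 408 pairs of a named member and an alternative, the other 398 kept their direction and side of the threshold. Depth limits the Raji-4RH values, most of which rest on few reads, and with 2 libraries a group every test rests on 1 pair of replicates.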
